A study of Mus musculus with 6 samples.

Results

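The genes described here are Apcdd1, which encodes a membrane-bound inhibitor of Wnt signalling, and 9 core genes of the Wnt pathway, measured in mouse megakaryocytes, the cells that release platelets. Apcdd1 was chosen because its signal differed between the genotypes on these arrays, and the other 9 were chosen as parts of the pathway it inhibits. The array annotation assigned 24 of 45101 probe sets to 1 of these genes alone. They cover 9 of the 10 genes, of 18194 genes with a probe set of their own: Apcdd1, Lrp5, Lrp6, Fzd7, Ctnnb1, Axin1, Axin2, Lef1 and Tcf7l2. Tcf7 had no probe set in the annotation used and was not analysed here.

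The cells were grown from fetal liver in medium with thrombopoietin, the hormone of megakaryocyte differentiation, and the mature cells were purified on an albumin gradient. The FOG1 ki/ki group held 3 arrays of the genotype written FOG1-/- ki/ki in the labels. The control group held 3 arrays, of which replicates 1 and 2 were FOG1+/- and replicate 3 was FOG1+/+. FOG1, the product of Zfpm1, is a cofactor of GATA transcription factors, and the labels do not say what the knocked-in allele changes. All 6 cultures had a mixed C57BL/6xSv129 background. The labels call them biological replicates without saying how many fetuses gave each culture or whether equal replicate numbers share a litter or day, so the p-values below measure the spread between these arrays, and the number of arrays limits the precision. Each control group statement covers both control genotypes, and FOG1+/+ cannot be told apart from replicate number 3 among controls.

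In the canonical Wnt pathway, a Wnt ligand binds a Frizzled receptor and the co-receptors LRP5 and LRP6. Without ligand, a complex built on the axins marks β-catenin for destruction. With ligand, β-catenin accumulates, enters the nucleus and activates genes together with TCF/LEF factors. Axin2 is both an inhibitor in that complex and a widely used target gene of the pathway.

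Signals are the authors' linear MAS5 intensities, and differences are FOG1 ki/ki minus control on the log2(signal + 16) scale, which understates the change of dim genes. A probe set is called near background here when its mean over the 6 arrays lay at or under the median of all probe sets, 4.71 on that scale, which corresponds to a signal of 10.3. The median signal of an array lay between 5.93 and 12.3 and was lowest on both arrays numbered 3. The ratio of 3' to 5' signal of the Gapdh control probe sets ranged from 1.20 to 2.38 over all arrays and was 2.38 and 1.86 on the FOG1 ki/ki and control arrays numbered 3. Zfpm1 had signals of 480.0, 868 and 1274 in FOG1 ki/ki replicates 1, 2 and 3, against 429.7, 862 and 1137 in controls, so it followed the replicate number. Whether its probes read transcripts of the knocked-in allele is not given in the sources used here, so these values do not check the genotype. Of the megakaryocyte markers, 14 of 14 measured genes were above background, including Itga2b, which encodes an integrin chain of platelets. Their signals summed to 22466, 25615 and 29859 in FOG1 ki/ki replicates 1, 2 and 3, against 24954, 33109 and 32991 in controls. The mean log2 value was lower in FOG1 ki/ki for 13 of the 14, with a median difference of -0.19, and the markers furthest from 0 were Gp6, the platelet collagen receptor, at -1.35, Tubb1, a platelet tubulin, at -1.01 and Gp1bb, a von Willebrand factor receptor chain, at -0.52. The part of this in the differences below was not tested.

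Apcdd1 lay close to the background line of 10.3 on the FOG1 ki/ki arrays and far above it on every control array. Its brightest probe set, 1454822_x_at, read 15.7, 10.7 and 8.69 in FOG1 ki/ki replicates 1, 2 and 3, against 487, 767 and 735 in control replicates 1, 2 and 3. The groups were far apart, with no FOG1 ki/ki array above 15.7 and no control array below 487. The means were 11.7 ± 3.61 in FOG1 ki/ki and 663 ± 153 in controls (SD, n = 3 each). On the log2 scale they differed by -4.60 with an SE of 0.29. Within equal replicate numbers the differences were -3.99, -4.87 and -4.93 for numbers 1, 2 and 3. Since Apcdd1 was chosen for this difference, these values describe it and no test of it is given. Their size rests on the pseudocount, at -5.72 with 1 and -3.24 with 64 in place of 16.

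Apcdd1 had 6 probe sets, and the groups did not overlap for 5 of them, all lower in FOG1 ki/ki, as was so for 4.70% of all probe sets in that direction. Nothing is read from that count either, since the gene was chosen from this comparison. Probe set 1449070_x_at read 5.9, 9.0 and 3.2 in FOG1 ki/ki, against 191, 291 and 347 in controls. Probe set 1418382_at read 8.70, 4.70 and 3.79 in FOG1 ki/ki, against 121, 166 and 209.7 in controls. The log2 differences of the remaining pair that did not overlap were -2.44 for 1418383_at and -1.36 for 1437604_x_at, both with FOG1 ki/ki signals of at most 4.40. The sixth, 1443639_at, was near background in both groups, with 0.10, 1.20 and 3.32 in FOG1 ki/ki and 1.30, 2.40 and 1.64 in controls. Probe sets ending in _x_at can hold probes shared with other transcripts, and 1418382_at, 1418383_at and 1443639_at do not carry that mark.

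**Figure D1:**
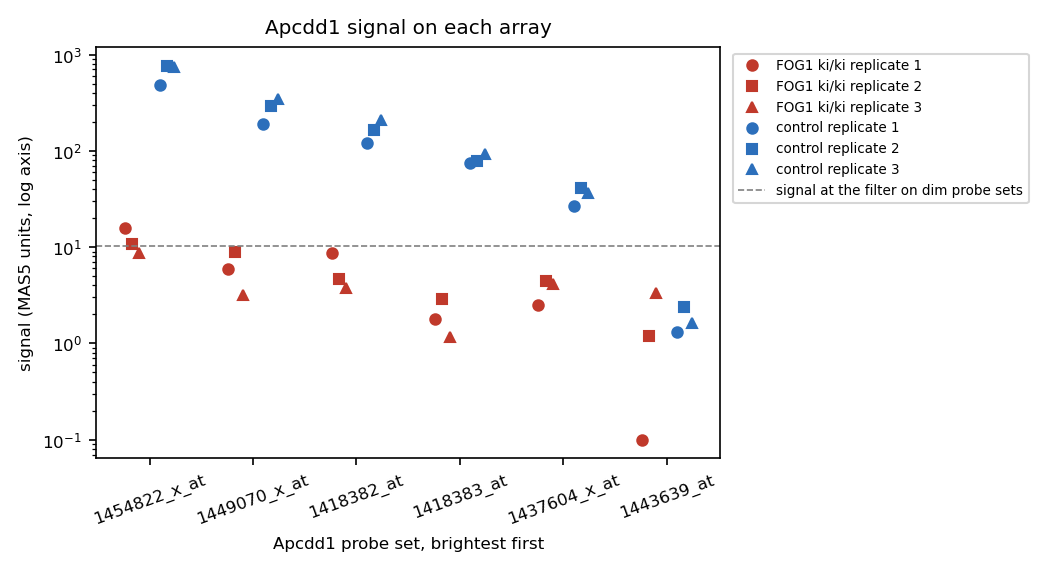
Signal of the 6 Apcdd1 probe sets on each array, on a log axis in MAS5 units. Points are single arrays, FOG1 ki/ki in red and control in blue, with the shape giving the replicate number, and the dashed line is the signal of 10.3 that separates probe sets near background. The 3 FOG1 ki/ki points lie below the 3 control points for 5 probe sets, and both groups lie below the line for 1443639_at.

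Among the controls, the signal of Apcdd1 varied less than the summed signal of fibroblast and stroma markers did. The FOG1+/+ array read 735 at the brightest probe set, between the FOG1+/- arrays at 487 and 767. Markers of fibroblasts and stroma, where 18 of 19 measured genes were above background, summed to 2849, 6192 and 448 in FOG1 ki/ki replicates 1, 2 and 3, against 4098, 14757 and 604 in controls. Apcdd1 read 735 on the control array with the lowest fibroblast and stroma sum and 767 on the one with the highest. Its protein-coding neighbours with a probe set, Napg and Piezo2, lie on the same side of it and did not share the pattern. Spink7 and Spink13, on the other side, had no probe set of their own. Napg, which encodes a vesicle fusion adaptor, read 695, 715 and 771 in FOG1 ki/ki, against 713, 796 and 895 in controls (log2 difference -0.13, limma adjusted p = 0.999). Piezo2, a mechanically gated ion channel, had a log2 difference of 0.07 (limma adjusted p = 0.999). The controls were only 3 arrays, and the part of stromal cells or of the gene's surroundings in the Apcdd1 difference was not tested.

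The genes whose pattern over the 6 arrays was most like that of Apcdd1 were Sh3bgrl2, Syt13, Ddit4l, Pdlim1 and Mmd, with Pearson r of 0.990, 0.988, 0.985, 0.983 and 0.982 among the 1248 other genes with a range of at least 2 on the log2 scale. These r describe 6 points that fall into 2 genotype groups, so any gene with well separated groups scores high. Pdlim1, which encodes an actin-associated PDZ and LIM domain protein, read 182.5, 155 and 122 in FOG1 ki/ki, against 893, 929 and 1615 in controls. Syt13, a synaptotagmin, read 272, 209.9 and 284 in FOG1 ki/ki, against 930.5, 1476 and 1220.3 in controls. Ddit4l, an inhibitor of mTOR signalling, read 8.50, 14.3 and 13.7 in FOG1 ki/ki, against 65.3, 103 and 102 in controls. All 5 were lower on every FOG1 ki/ki array than on any control array, as Apcdd1 was and as was so for 4.93% of all genes. These 5 genes were picked for likeness to Apcdd1, so nothing is read from that count. They are among the 11260 genes of the limma fit, but since they were picked for a pattern that separates the genotypes, nothing is read from their p-values here.

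Of the 10 genes, 8 were tested, and limma with Benjamini-Hochberg adjustment over 11260 genes called 1, Apcdd1 itself, where 0.151% of all genes were called. As Apcdd1 was chosen from this comparison, nothing is read from that count. Of the other 7 tested, 0 were called, with 0 at an unadjusted p under 0.05, where 6.69% of all genes passed that level. With the replicate number as a block 0 of the 7 were called as well, where 0.835% of all genes were, and 2, Lrp6 and Tcf7l2, had an unadjusted p under 0.05, where 18.4% of all genes did. At this number of arrays these values do not show that the levels were equal.

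The co-receptor gene Lrp6 was well above background in both groups. Its brighter probe set read 410.2, 483.5 and 619 in FOG1 ki/ki replicates 1, 2 and 3, against 309.5, 448 and 408 in controls. The groups overlapped, since control replicate 2 lay above FOG1 ki/ki replicate 1, but the difference was positive within each replicate number, at 0.39, 0.11 and 0.58. The mean difference was 0.36 (SE 0.24, limma adjusted p = 0.945). The dimmer Lrp6 probe set gave a mean difference of 0.18, with -0.10 in replicate number 2.

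Lrp5, the related co-receptor gene, lay close to background. It read 12.6, 13.5 and 5.15 in FOG1 ki/ki, against 15.2, 16.2 and 7.16 in controls. Both arrays numbered 3 were lower than the other 4, whatever the genotype. The log2 difference was -0.13 (SE 0.26, limma adjusted p = 0.999), with -0.13 in each replicate number.

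Fzd7, a Frizzled receptor, varied mainly with the replicate number. It read 71.0, 119 and 19.8 in FOG1 ki/ki replicates 1, 2 and 3, against 111, 160.2 and 31.6 in controls. The groups overlapped, while FOG1 ki/ki was lower within each number, by log2 differences of -0.55, -0.39 and -0.41. The mean difference was -0.45 (SE 0.62, limma adjusted p = 0.999). The other Fzd7 probe set did not exceed 2.20 on any array and was near background.

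Ctnnb1, which encodes β-catenin, differed between the groups by less than the spread between arrays at its brightest probe set. That probe set read 1998, 2193 and 2204 in FOG1 ki/ki, against 2002, 2325 and 1891 in controls. The means were 2132 ± 116 and 2073 ± 225 (FOG1 ki/ki and control, SD, n = 3 each), which is 0.04 on the log2 scale (SE 0.12, limma adjusted p = 0.999). Its other probe sets disagreed in sign, at -0.18 for 1450008_a_at and -0.29 for 1430533_a_at, and both were lowest on the arrays numbered 3. Probe set 1430533_a_at read 222.5, 103 and 41.2 in FOG1 ki/ki, against 194, 115 and 91.6 in controls, so its difference in replicate number 3, -0.91, stood apart from 0.18 and -0.15 in the other numbers. The β-catenin protein, which the pathway regulates by degradation, was not measured by these arrays.

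**Figure D2:**
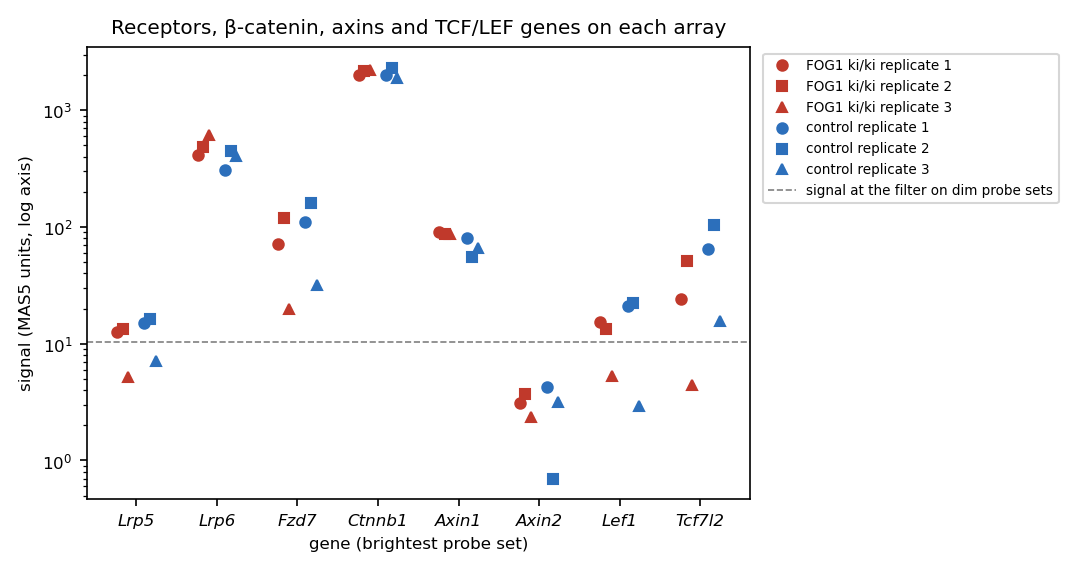
Signal of the brightest probe set of 8 genes on each array, on a log axis in MAS5 units, with FOG1 ki/ki in red, control in blue and the shape giving the replicate number. Levels of different genes cannot be ranked, since probes differ in brightness. The triangles, replicate 3, lie lowest in both groups for Lrp5 and Fzd7, and at Axin2 all points lie below the dashed line at 10.3.

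The axin genes differed in whether they could be measured. Axin1, the scaffold of the complex that marks β-catenin, read 91.5, 86.3 and 87.4 in FOG1 ki/ki, against 80.5, 55.4 and 66.6 in controls. The groups did not overlap, as was so for 6.32% of all genes in this direction. The log2 difference was 0.33 (SE 0.26, limma adjusted p = 0.970), and it was 0.03 at the dimmer Axin1 probe set, where the groups overlapped. Axin2 was near background at both of its probe sets and was not tested. The first read 3.10, 3.70 and 2.34 in FOG1 ki/ki, against 4.30, 0.70 and 3.17 in controls, and the second 4.0, 4.8 and 2.14 in FOG1 ki/ki, against 1.60, 1.60 and 1.55 in controls. The second had groups that did not overlap, as did 4.56% of all probe sets in that direction, but at signals of at most 4.80 in FOG1 ki/ki this order carries no level.

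Among the TCF/LEF genes, Tcf7l2 had the largest difference of the 7 genes tested beside Apcdd1. Its brightest probe set read 24.0, 50.9 and 4.42 in FOG1 ki/ki replicates 1, 2 and 3, against 64.7, 104 and 15.6 in controls. Each FOG1 ki/ki array was lower than the control of its number, by log2 differences of -1.01, -0.84 and -0.63, while the groups as a whole overlapped. The mean difference was -0.83 (SE 0.59, limma adjusted p = 0.956). The other 3 Tcf7l2 probe sets were near background, with no array above 6.60. Lef1 lay close to background, with 15.4, 13.3 and 5.26 in FOG1 ki/ki, against 21.1, 22.3 and 2.93 in controls, which gives -0.15 on the log2 scale (SE 0.34, limma adjusted p = 0.999). Its other probe set did not exceed 1.46 on any array. Of 11 T lymphocyte markers, a cell type known for Lef1, 9 were near background, among them the T cell receptor genes Cd3d, Cd3e and Cd3g. The 2 above it were Lat, a signalling adaptor, with means of 1503 in FOG1 ki/ki and 1298 in controls, and Cd4, with means of 16.8 in FOG1 ki/ki and 21.4 in controls. Lat made up most of the summed signal of this list on every array, so that sum does not measure T cells.

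The start sites of Tcf7l2 are shown as a description, with GATA letters marked because FOG1 is a cofactor of GATA factors. Tcf7l2 was picked for being lower within every replicate number, which also held for 19.3% of all genes, and it was not called. Whether FOG1 or a GATA factor acts on Tcf7l2 was not tested. The windows run from 250 bases before to 50 after each start, from RefSeq on GRCm38.p6, 5' to 3' on the + strand, with the GATA letters AGATAA, read on either strand, in capitals. The upstream window is chr19:55741560-55741859 and the downstream window is chr19:55895071-55895370.
Tcf7l2 upstream: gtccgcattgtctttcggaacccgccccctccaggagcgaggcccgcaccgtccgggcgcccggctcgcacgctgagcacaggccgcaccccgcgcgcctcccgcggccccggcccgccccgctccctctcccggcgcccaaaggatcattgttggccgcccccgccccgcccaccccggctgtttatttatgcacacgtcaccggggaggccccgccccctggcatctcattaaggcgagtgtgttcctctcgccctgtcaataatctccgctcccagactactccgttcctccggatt
Tcf7l2 downstream: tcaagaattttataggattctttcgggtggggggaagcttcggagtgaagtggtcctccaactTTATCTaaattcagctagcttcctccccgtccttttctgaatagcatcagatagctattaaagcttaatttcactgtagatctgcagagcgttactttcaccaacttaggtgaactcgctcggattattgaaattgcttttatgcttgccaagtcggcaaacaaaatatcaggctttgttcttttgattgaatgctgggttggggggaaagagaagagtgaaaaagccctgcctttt
The downstream window held 1 GATA match and the upstream window 0, where 11.2% of the 32851 windows in the table held at least 1. The TCF/LEF letters CTTTGA, on either strand, were in neither Tcf7l2 window, where 5257 of all 32851 windows held them. Among the 12 windows listed for Fzd7, Lef1, Ctnnb1, Tcf7, Axin2 and Tcf7l2, the TCF/LEF letters were in 1, the Lef1 window chr3:131156044-131156343, which held 2 such matches and 1 GATA match. Such matches describe letters and not bound sites.

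**Figure D3:**
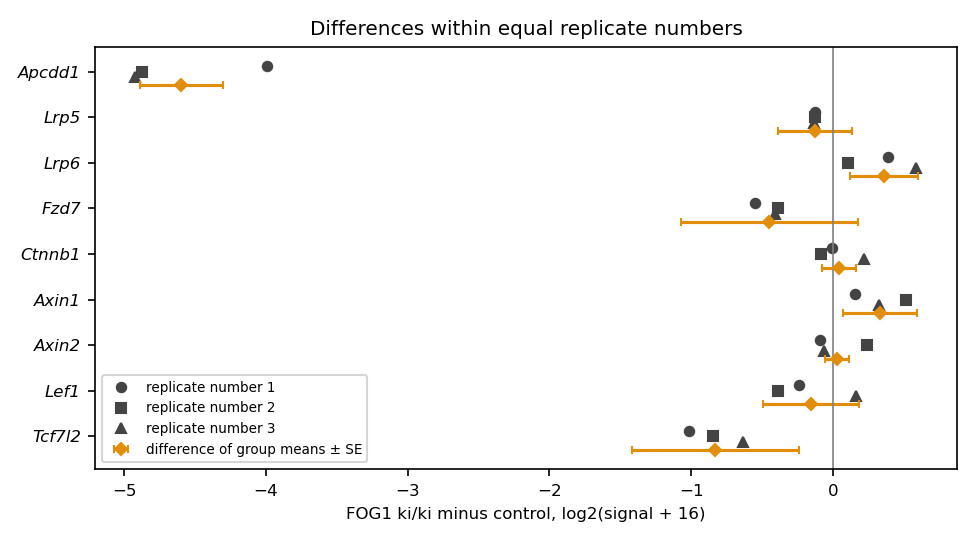
Differences of the brightest probe set of 9 genes on the log2(signal + 16) scale, FOG1 ki/ki minus control. Grey marks are the differences within replicate numbers 1, 2 and 3, and orange diamonds are the differences of group means with limma's SE (for Axin2 from the fit of all probe sets). Apcdd1 lies between -4.93 and -3.99, and the grey marks of Fzd7 and Tcf7l2 all lie below 0 with less spread than their SE bars.

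Signals of several of these genes moved with the replicate number and not only with genotype. For 10 of the 18 probe sets of the genes other than Apcdd1, both arrays numbered 3 were below the other 4, as was so for 20.2% of all probe sets. Among the 7 genes tested these were 4, namely Lrp5, Fzd7, Lef1 and Tcf7l2, against 18.8% of all genes. Within replicate numbers, 2 of the 7, Lrp6 and Axin1, were higher in FOG1 ki/ki in all 3 and 3 of the 7, Lrp5, Fzd7 and Tcf7l2, were lower in all 3, where 24.8% and 19.3% of all genes were. The order of the 6 arrays for Fzd7 was the same as for the fibroblast and stroma marker sum, from control replicate 2 at the top, through FOG1 ki/ki replicate 2, control replicate 1, FOG1 ki/ki replicate 1 and control replicate 3, to FOG1 ki/ki replicate 3. Tcf7l2 and Lrp5 differed from that order only in having control replicate 1 above FOG1 ki/ki replicate 2, and their order was that of the B lymphocyte marker sum. That sum was 185, 207.5 and 44.6 in FOG1 ki/ki, against 275.5, 329.9 and 93.1 in controls. In this list 4 of 9 genes were above background, and the defining markers Cd79a, Ms4a1 and Pax5 were near it. Of those 4, Ebf1, Blnk and Vpreb1 had lower means in FOG1 ki/ki, at 15.2, 32.8 and 7.87 against 59.1, 79.3 and 17.2. The other, Cd79b, did not, with 106.1, 70.8 and 10.2 in FOG1 ki/ki, against 78.2, 52 and 20.4 in controls. Fewer cells of a type and less RNA per cell cannot be told apart in these bulk samples, and the part of either marker sum in these differences was not tested. Monocyte and macrophage markers summed to 4366, 11355 and 7636 in FOG1 ki/ki, against 11068, 14731 and 8370.1 in controls, and mast cell and basophil markers to 6832, 6579 and 6668 in FOG1 ki/ki, against 3404, 3295 and 283 in controls.

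**Figure D4:**
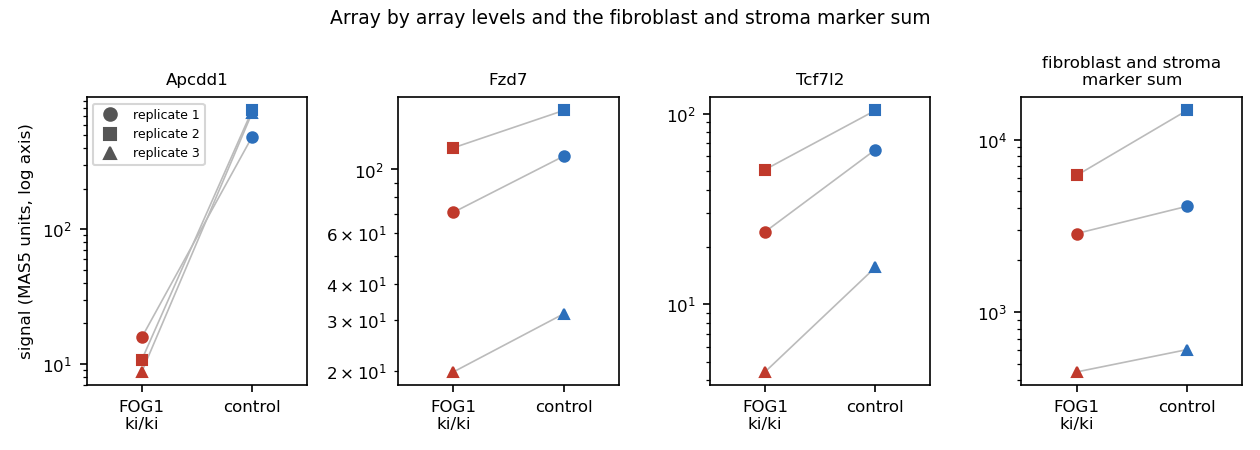
Signals of Apcdd1, Fzd7 and Tcf7l2 (brightest probe sets) and the summed signal of 19 fibroblast and stroma markers on each array, log axes in MAS5 units, FOG1 ki/ki left and control right, with lines joining equal replicate numbers. Fzd7, Tcf7l2 and the marker sum are lowest in replicate 3 of both groups, while Apcdd1 separates the groups at every number.

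The wider pathway was read from a list of 177 other Wnt genes in 11 role classes. Of these, 169 had a probe set naming them alone, 67 were near background and 102 were tested. With limma 0 of the 102 passed, with or without the replicate block, and 9 (8.82%) had an unadjusted p under 0.05, or 23 (22.5%) with the block, beside 6.69% and 18.4% of all genes. Their median log2 difference was -0.0055, beside 0.033 for all 11260 genes, and 50 lay above control and 52 below.

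At the start of the pathway, 18 of 19 Wnt ligand genes were near background, with no mean above 6.13. The exception was Wnt5a, a ligand known mainly for β-catenin-independent signalling, which read 5.90, 5.70 and 0.063 in FOG1 ki/ki, against 29.9, 32.4 and 22.6 in controls. The groups did not overlap, as for 4.93% of all genes in that direction. The log2 difference was -1.16 (SE 0.25, limma adjusted p = 0.223, and 0.058 with the replicate block). Every FOG1 ki/ki value of Wnt5a lay under the background line of 10.3, so the gene was kept through its control arrays. The size of its difference rests on the pseudocount, at -2.99 with 1 and -0.443 with 64. Wls, which carries Wnt ligands to the cell surface, had a difference of 0.40 and Porcn, the enzyme that lipidates them, one of -0.28. Of 14 other receptor genes 7 were tested, with Fzd4 at 0.75 and Fzd5 at -0.33. All 4 R-spondin genes, whose products strengthen Wnt signals, were near background, and their receptor genes Lgr4 and Lgr6 had differences of -0.75 and -0.72. The 3 genes tested in that class all had negative differences, with a median of -0.72. Of 20 other inhibitor genes on the array 15 were near background. The 5 tested all had negative differences, with a median of -0.65, and 0 were called. Dkk1, a secreted inhibitor that binds LRP6, read 4.8, 8.4 and 3.73 in FOG1 ki/ki, against 24.9, 25.7 and 6.46 in controls, and overlapped between the groups. Draxin, another secreted inhibitor, read 146, 101 and 133 in FOG1 ki/ki, against 137, 185 and 583 in controls, with a difference of -0.90. Control replicate 3 stood above the other 5 arrays, and without it the difference was -0.31.

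Inside the cell the class medians ran from -0.20 for the cytoplasmic inhibitors to 0.29 for the target genes. The 17 destruction complex genes had a median difference of 0.035, ranging from -0.23 to 0.39, with Amer1, an APC-binding scaffold, at 0.39 and the phosphatase gene Ppp2ca at -0.16. The 13 cytoplasmic activators tested had a median of -0.034, with Frat1 and Frat2, which bind the kinase GSK3, at -0.72 and -0.44. Among 7 cytoplasmic inhibitors tested, Cby1, which binds β-catenin, was at -0.79 and the kinase gene Nlk at -0.20. Of 15 nuclear factors tested, the co-repressor gene Tle3 read 945, 955 and 818 in FOG1 ki/ki, against 758, 654 and 399 in controls. Its groups did not overlap, as for 6.32% of all genes in that direction (log2 difference 0.62, limma adjusted p = 0.688). The β-catenin cofactor gene Bcl9l was at 0.39. Of 14 target genes on the array, Sp5, Tnfrsf19, Mmp7 and Cdx1 were near background like Axin2. The 10 target genes tested had a median of 0.29, with Id2, an inhibitor of basic helix-loop-helix factors, at 0.78 and the adhesion receptor gene Cd44 at -0.36 (limma adjusted p = 0.730 and 0.676). The Id2 difference was uneven, at 0.017, 0.45 and 1.88 within replicate numbers 1, 2 and 3. Chosen after their values were seen, the cell cycle gene Ccnd1 and the growth regulator Myc were higher in FOG1 ki/ki within all 3 replicate numbers. So were 24.8% of all genes. Ccnd1 read 602, 656 and 1820 in FOG1 ki/ki, against 361, 414 and 741 in controls (log2 difference 0.88, limma adjusted p = 0.870, and 0.069 with the replicate block). Myc read 289.7, 341 and 241 in FOG1 ki/ki, against 162, 259 and 104 in controls (log2 difference 0.75, limma adjusted p = 0.803, and 0.131 with the block). With the block 4 of the 10 target genes had an unadjusted p under 0.05, beside 18.4% of all genes, and 0 were called. Of these, Ccnd1, Myc and Ccnd2, another cell cycle gene, were higher in FOG1 ki/ki, and Cd44 was lower. The targets Dkk1, Nkd1 and Lgr5 were counted in other classes and are not among the 10. Nkd1 and Lgr5 were near background. Dkk1 was lower in FOG1 ki/ki within all 3 replicate numbers (log2 difference -0.65), as were 19.3% of all genes.

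In the β-catenin-independent branch 22 genes were tested, with a median of -0.0015. Nfatc2, a calcium-regulated transcription factor, read 128, 134 and 259 in FOG1 ki/ki, against 61.8, 61.5 and 57.0 in controls (log2 difference 1.25, SE 0.33, limma adjusted p = 0.329). Plcb1, a phospholipase C, read 46.9, 50.1 and 38.7 in FOG1 ki/ki, against 126, 96.3 and 105 in controls (log2 difference -1.03, SE 0.26, limma adjusted p = 0.317). Neither gene's groups overlapped, as for 6.32% of all genes in the direction of Nfatc2 and 4.93% in that of Plcb1. Neither passed the test, and with the replicate block limma adjusted p was 0.090 for Nfatc2 and 0.080 for Plcb1.

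**Figure D5:**
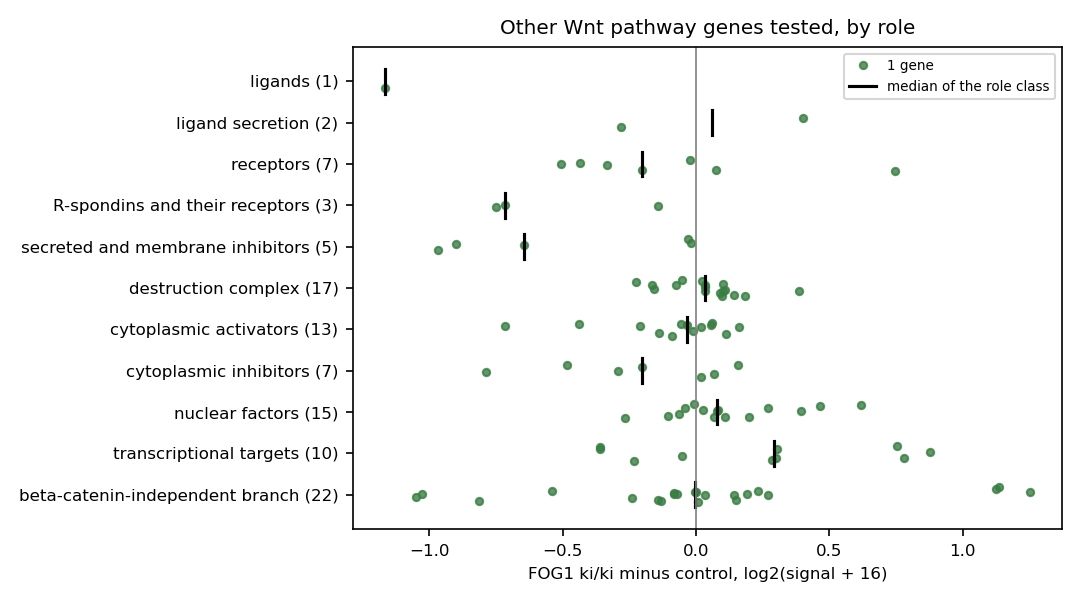
Log2 differences, FOG1 ki/ki minus control on the log2(signal + 16) scale, of the 102 other Wnt pathway genes tested, by role class with the number tested in brackets. Points are genes, spread vertically for legibility, and black lines are class medians. Differences run from -1.16 for Wnt5a to 1.25 for Nfatc2, and none passed the test.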

How the data were processed

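Expression was measured on 6 arrays, 3 FOG1 ki/ki and 3 control, with RNA amplified and biotin-labelled with NuGEN WT-Ovation kits, per the labels. The submitters' processing notes name MAS5 as the source of the deposited intensity values, with the version, scanner settings and genome build not given in the sources used here. Every deposited column had a 2% trimmed mean intensity of 150, so the authors had scaled the arrays to one target, and a change in total RNA per cell cannot be seen.

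Of 45101 probe sets, 64 control probe sets were left out, and 34958 had 1 gene symbol. Values were taken as log2(signal + 16), probe sets in the lower 50% by mean log2 value were dropped, and each gene was read from its brightest probe set naming it alone, leaving 11260 genes. The comparison used lmFit and eBayes (trend on) of limma 3.58.1 under R 4.3.3, p-values were adjusted by Benjamini and Hochberg's method with a threshold of 0.05, and the fit was tested on simulated data. Probe sets below the filter were read from a fit of all 45037 other probe sets. Python 3.11.15 with pandas 2.3.3, numpy 2.4.6 and matplotlib 3.10.9 did the rest. Deviations from group means of equally numbered arrays correlated across genes at 0.482, 0.689 and 0.674, so the numbers were taken as pairs, and the unpaired fit stayed the main one.

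The genes, lists and tests were chosen with earlier results of these data known. The naming rule took all 10 genes, in each role class of the wider list up to 2 tested genes with the smallest unadjusted p and any called, the 5 genes most correlated with Apcdd1, and Zfpm1, Gata1 and Itga2b as checks. Napg and Piezo2 were named outside that rule, as genes next to Apcdd1. So were the target genes Ccnd1, Myc and Ccnd2, after their values were seen. Gata1 had a log2 difference of -0.13 and Itga2b one of -0.07. Marker lists whose sums the report does not give had sums per array of 149 to 355 for hepatocytes (2 of 8 genes above background), 1568 to 2564 for endothelial cells, 1172 to 1837 for T lymphocytes (2 of 11, mostly Lat), 2330.3 to 2929 for erythroid cells and 2774 to 16406 for neutrophils. Alternatives were other pseudocounts, filters, scalings, probe set choices, an eBayes fit without trend, the replicate block and leaving out arrays.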

Additional observations from a re-analysis of the deposited data

How the results depend on the processing

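The Apcdd1 difference stayed negative under all 18 alternatives that kept the gene. Its sign could hardly turn, since the gene was chosen for this difference and no signal lay between 15.7 and 487. Nothing is therefore read from the stable sign. The difference was -5.72 with a pseudocount of 1, -3.24 with 64 and -3.03 with the mean of its probe sets. It lay between -4.90 and -4.43 without any 1 array or 1 replicate number. The brightest 25% of probe sets did not include Apcdd1. The number of genes called, 17, was 8 with a pseudocount of 1, 1 with no filter on dim probe sets, 3 in the brightest 25%, 1 over all probe sets and 94 with the replicate block. It ranged from 0 to 2 without any 1 array or 1 replicate number. None of the other 7 genes tested, nor of the wider Wnt list, was called under any of the 19 alternatives that kept it, the block included. The brightest 25% of probe sets did not include Lrp5, Fzd7, Axin1, Lef1 or Tcf7l2. Settings that left out arrays called 0 to 2 genes in all, so nothing is read from the lack of calls there. The 5 genes most like Apcdd1 were picked for a pattern that separates the genotypes, so nothing is read from their calls under the alternatives. With the block Tcf7l2 had limma adjusted p = 0.113 and Lrp6 0.256.

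The sign turned for 6 uncalled genes. Over the settings without 1 array or 1 replicate number, the ranges were -0.28 to 0.025 for Lrp5, -0.999 to 0.085 for Fzd7, -0.48 to 0.024 for Lef1, -0.043 to 0.13 for Ctnnb1, -0.14 to 0.88 for Wls and -0.52 to 0.10 for Porcn. The Fzd7 and Lrp5 differences turned without FOG1 ki/ki replicate 3, whereas without both arrays of 1 number Fzd7 stayed between -0.48 and -0.40 and Lrp5 at -0.13. Ctnnb1 was at -0.14 with the mean of its probe sets. The median of the wider list, -0.0055, lay between -0.10 and 0.054 without any 1 array or 1 replicate number. The cause of these changes was not tested. Signals near background limit Axin2, Lrp5 and Lef1.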
